A study of Mus musculus with 18 samples.

Results

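BMAL1 is a basic helix-loop-helix protein of the circadian clock, and with its partner CLOCK it binds DNA, most often at the E-box CACGTG. In liver the clock drives daily rhythms in genes of glucose, lipid and amino acid metabolism, and many transcription factors of hepatocytes act through enhancers that lie away from the genes they regulate. The regions described here are the liver BMAL1 peaks that were found in no other tissue of the series and that lie outside genes. They were chosen from the authors' peak lists by 2 criteria: no overlap of even 1 bp with a kidney or heart peak, and a centre outside every RefSeq gene of any kind and more than 1 kb from every gene end. The rule selected 788 of the 4813 liver peaks (16.4%), or 788 of the 3199 liver peaks without an overlapping peak in kidney or heart (66.5% of the liver list). They are called liver-only intergenic peaks below. Because peak calls and gene positions chose them, their number, their scores and their distance from genes are descriptions without a test.

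The lists came from BMAL1 chromatin immunoprecipitation with sequencing (ChIP-seq) in wild-type C57BL/6 mice aged 3 to 6 months, kept under 12 h light and 12 h dark with free access to food and water. Liver, kidney and heart of the same animals (3 mice per tissue) were taken 6 h after lights on, and each tissue gave 3 ChIP and 3 input libraries. The authors made 1 list per tissue from all its libraries together, so no value exists per animal, no spread between mice can be given, and the read depth is unknown. Intervals below are exact Clopper-Pearson 95% intervals that cover counting error over peaks or genes only. A region bound weakly in kidney or heart and absent from those lists also counts as liver-only. For the heart inputs, one label field says kidney where the titles say heart. Whether this affected the heart list, which helped to choose the regions, was not tested.

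The sequences of the peaks themselves were not used here. Shown instead are promoters of genes next to the regions, from RefSeq (GRCm38.p6), that held both a liver BMAL1 peak centre within 250 bp of the start site and an E-box. They are the 5 such genes, of the gene lists described further on, with the highest-scoring liver-only intergenic peak, and they pair a bound E-box promoter with a liver-only intergenic site. Each runs 5′ to 3′ on the gene's strand from 250 bases before the start site, which is the base numbered 0, and capitals mark CACGTG.

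Ppp1r3c promoter, chr19:36736555-36736854, - strand: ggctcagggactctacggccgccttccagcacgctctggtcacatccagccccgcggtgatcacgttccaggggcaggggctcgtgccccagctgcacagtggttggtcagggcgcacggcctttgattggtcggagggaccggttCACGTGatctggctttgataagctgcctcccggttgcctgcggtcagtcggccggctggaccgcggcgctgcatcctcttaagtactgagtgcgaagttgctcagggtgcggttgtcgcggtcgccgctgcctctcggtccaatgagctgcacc
Apoa5 promoter, chr9:46268358-46268657, + strand: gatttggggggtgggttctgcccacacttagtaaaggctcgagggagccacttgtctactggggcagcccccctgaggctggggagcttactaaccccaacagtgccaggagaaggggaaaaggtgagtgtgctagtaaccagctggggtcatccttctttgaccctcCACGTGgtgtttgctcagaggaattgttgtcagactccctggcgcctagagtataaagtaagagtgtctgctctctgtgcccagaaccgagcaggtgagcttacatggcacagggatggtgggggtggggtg
Onecut1 promoter, chr9:74861671-74861970, + strand: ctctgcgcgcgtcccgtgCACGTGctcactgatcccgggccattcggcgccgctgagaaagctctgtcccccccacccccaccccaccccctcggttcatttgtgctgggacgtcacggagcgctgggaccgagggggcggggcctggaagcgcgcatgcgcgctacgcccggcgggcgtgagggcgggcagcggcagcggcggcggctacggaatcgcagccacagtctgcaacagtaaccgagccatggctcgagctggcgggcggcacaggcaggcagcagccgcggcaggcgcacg
Irs2 promoter, chr8:11008880-11009179, - strand: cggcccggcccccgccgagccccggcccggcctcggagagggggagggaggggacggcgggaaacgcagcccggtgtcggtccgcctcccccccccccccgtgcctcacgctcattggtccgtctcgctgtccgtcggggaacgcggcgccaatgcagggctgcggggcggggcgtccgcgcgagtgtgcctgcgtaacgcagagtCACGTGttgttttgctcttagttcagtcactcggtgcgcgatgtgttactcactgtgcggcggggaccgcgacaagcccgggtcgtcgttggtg
Klf15 promoter, chr6:90462326-90462625, + strand: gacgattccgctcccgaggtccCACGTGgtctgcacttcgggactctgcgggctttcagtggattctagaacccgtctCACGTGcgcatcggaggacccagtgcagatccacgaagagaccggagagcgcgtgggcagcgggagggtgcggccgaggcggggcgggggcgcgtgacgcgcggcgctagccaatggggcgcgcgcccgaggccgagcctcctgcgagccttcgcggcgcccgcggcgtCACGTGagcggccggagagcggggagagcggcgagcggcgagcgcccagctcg

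The 788 peaks made up 24.6% of the liver-only peaks (23.2 to 26.2%). The other liver-only peaks lay inside genes (1702) or within 1 kb of a gene end (709). Among the liver peaks that overlapped a kidney or heart peak, 12.3% lay outside genes by the same rule (199 of 1614, 10.8 to 14.0%). Intergenic peaks made up 16.0% of the kidney-only list (373 of 2327, 14.6 to 17.6%) and 17.8% of the heart-only list (292 of 1637, 16.0 to 19.8%). Between the first and the last gene of chromosomes 1 to 19 and X, 1306031831 of 2612173430 bases met the same positional rule, a larger share than that of the peaks in each of these classes. By chromosome, the share of liver-only peaks that were intergenic ran from 12.5% on X (2 of 16 peaks) and 17.7% on chromosome 4 (41 of 232) to 37.2% on chromosome 13 (55 of 148).

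The 3 regions just inside the rule lay 1016 bp from Gm13869 (score 30), 1022 bp from Etnk2 (score 122) and 1027 bp from Gas1 (score 32). The 3 liver-only peaks just outside it lay 999 bp from Sh3d19 (score 33), 984 bp from 0610005C13Rik (score 80) and 983 bp from Usf2 (score 64).

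Scores ran from 17 to 256 with a median of 31 and quartiles of 22 and 44. The score is a whole number that the authors gave each peak, on a scale not stated in the sources used here, and it ranks peaks only within the liver list. The median was the same for liver-only peaks inside genes (31), higher for liver-only peaks at gene ends (36) and higher again for intergenic peaks shared with kidney or heart (54). When the liver list was cut by score into 5 parts of equal size, the liver-only intergenic peaks made up 4.47% of the highest-scoring part (43 of 963). They made up 13.3%, 16.4% and 20.9% of the following parts and 26.8% of the lowest (258 of 963). Set against the liver-only peaks alone, the range was narrower: 17.1% of those in the highest part (12.6 to 22.3%) and 29.3% of those in the lowest (26.3 to 32.4%). At the low end, 141 peaks (17.9%) had a score of 20 or less, and 47 had the lowest score of the list, 17.

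**Figure D1:**
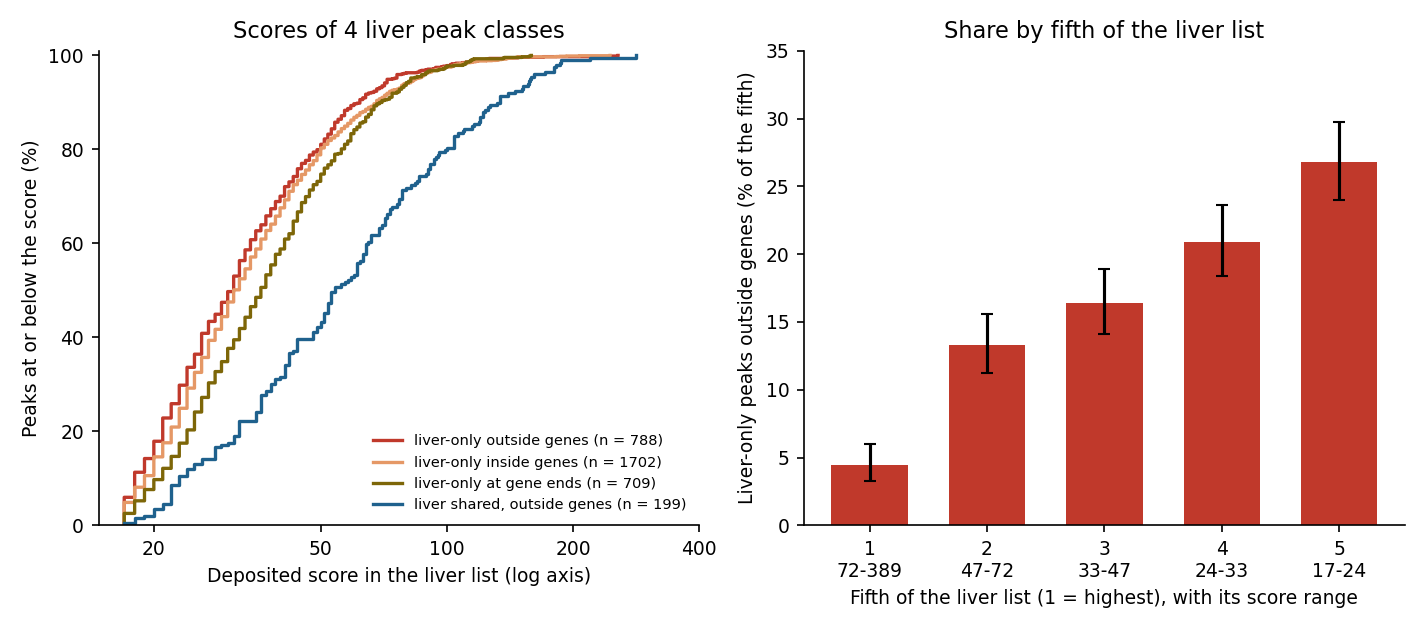
Left: cumulative share of peaks (%) against the deposited score on a log axis for 4 classes of liver peaks. Right: liver-only intergenic peaks as a share (%) of each of 5 equal parts of the liver list by score, with exact 95% intervals. The curve of the 788 liver-only intergenic peaks lies close to that of liver-only peaks inside genes and to the left of the shared intergenic peaks, and the share rises from 4.47% in the highest part to 26.8% in the lowest.

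A few of these regions ranked among the strongest peaks of the liver list. The highest score, 256 (rank 16 of 4813), belonged to a region on chromosome 17 (8349018 to 8349259), 1.23 kb from Gm46592 on its 5′ side, with kidney's nearest peak 5.49 kb away. The next, with a score of 245 (rank 21, chromosome 17, 29396840 to 29397081), lay 17.4 kb past the 3′ end of Fgd2, which encodes an exchange factor for the small GTPase CDC42. A region with a score of 170 (rank 91, chromosome 5, 111505270 to 111505511) lay 48.4 kb from Mn1, a transcriptional coregulator, and 3.89 kb from the RNA gene Gm36223. The Fgd2 and Mn1 regions each had a kidney peak close by without overlap (1.37 and 1.16 kb between centres), so 2 of the 3 leading regions were near binding in another tissue.

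A region with a score of 148 (chromosome 7, 80446295 to 80446536) lay between Furin, a proprotein convertase (41.0 kb), and Blm, a RecQ helicase (8.58 kb), and its nearest kidney peak was 214 kb away. The most remote of the leading regions scored 138 (chromosome 13, 39441863 to 39442104). It lay 176 kb from the nearest annotated gene of any kind, 481 kb from Slc35b3 and 919 kb from the next liver peak. Some leading regions lay near genes of metabolism. The peak with a score of 124 was 10.4 kb upstream of Aspg, an asparaginase (chromosome 12, 112096207 to 112096448). That with a score of 122 was 1.02 kb upstream of Etnk2, an ethanolamine kinase of phospholipid synthesis, and 2.12 kb from Ren1, the renin gene (chromosome 1, 133362321 to 133362562). That with a score of 119 was 41.1 kb upstream of Abcd3, a transporter of the peroxisomal membrane (chromosome 3, 121856293 to 121856534). This region lay closer to the RNA gene Gm33987 (1.24 kb), and its nearest kidney peak was 4.12 kb away. The peak with a score of 126 lay 6.39 kb from Dcun1d4, a gene of the neddylation pathway (chromosome 5, 73474499 to 73474740).

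The region with a score of 118 (rank 296, chromosome 2, 27599157 to 27599398) lay between Wdr5, a subunit of histone methyltransferase complexes (62.7 kb), and Rxra, the retinoid X receptor that partners many hepatic nuclear receptors (77.2 kb). Fam20a (score 115, 10.1 kb), Med29, a Mediator subunit (score 111, 1.96 kb), and Bod1 (score 109, 75.3 kb) followed. Id2, an inhibitor of helix-loop-helix factors, was the nearest protein-coding gene to a region at 137 kb with a score of 105. Dact1 (110 kb) and Vegfa, the vascular growth factor (12.6 kb), were each nearest to a region with a score of 102. A second region near Fgd2 scored 100. G6pc, the catalytic subunit of glucose-6-phosphatase and the last step of gluconeogenesis, lay 1.26 kb from a region with a score of 98 (rank 483, chromosome 11, 101379046 to 101379287) past its 3′ end. The 20th region scored 97, 132 kb upstream of Bcl6, a transcriptional repressor.

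Most of the regions were far closer to genes than intergenic sequence in general. The median distance from a peak centre to the nearest protein-coding gene was 18.2 kb (95% interval of the median 15.7 to 20.0 kb), and to a gene of any kind 8.53 kb. Positions taken every 2 kb that met the same rule had a median of 99.9 kb to a protein-coding gene. Within 50 kb of a protein-coding gene lay 74.1% of the regions (584 of 788), against 37.4% of those positions. Over 100 kb from one lay 15.2% (120 peaks, 12.8 to 17.9%), against 49.97% of positions. Among the other intergenic classes, the median was 14.9 kb for liver peaks shared with kidney or heart (9.72 to 19.2 kb). It was 17.6 kb for kidney-only peaks (14.0 to 21.6 kb) and 25.6 kb for heart-only peaks (18.9 to 31.3 kb). The intervals of the shared and the kidney-only peaks overlapped that of the liver-only peaks, and that of the heart-only peaks overlapped it at its lower end, and these differences were not tested. Scores differed little with distance: the median was 32 within 5 kb of a protein-coding gene, 29 from 5 to 20 kb, 30 from 20 to 100 kb and 29 beyond.

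**Figure D2:**
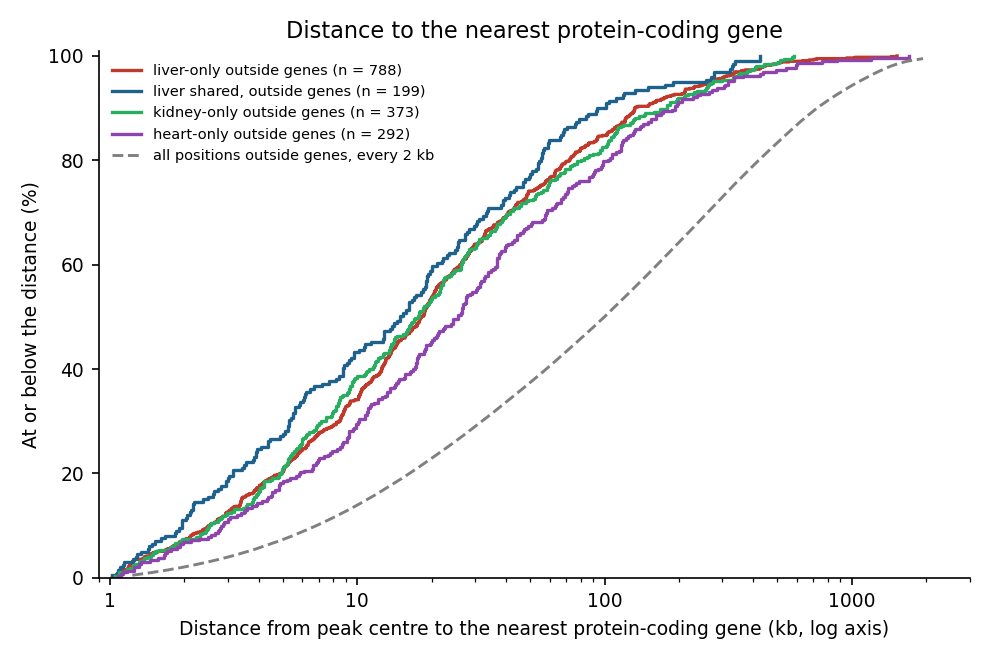
Cumulative share (%) against the distance in kb, on a log axis, from a peak centre to the nearest protein-coding gene, for intergenic peaks of 4 classes and for all intergenic positions taken every 2 kb (dashed). The peak classes lie together, with medians of 14.9 to 25.6 kb, to the left of the positions at 99.9 kb.

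The nearest annotated gene was protein-coding for 361 regions (45.8%), a long non-coding RNA for 290 (36.8%) and a pseudogene for 108 (13.7%). A microRNA gene was nearest in 5 cases, among them Mir193a at 6.97 kb from a peak with a score of 29. Strand was known for the nearest protein-coding gene of 601 regions. Of these, 341 lay on the 5′ side of the gene and 260 on its 3′ side, a 5′ share of 56.7% (52.7 to 60.7%). The same share was 52.9% over all intergenic positions, which lies just inside that interval. It was 51.3% for shared intergenic peaks, 51.5% for kidney-only and 53.5% for heart-only peaks. None of the 3 comparisons with the liver-only peaks passed the threshold (Fisher's exact, two-sided: odds ratios 1.24, 1.24 and 1.14, Benjamini-Hochberg adjusted p 0.354, 0.354 and 0.423). These tests take peaks as units and describe the lists, not variation between mice. Beyond 500 kb from any protein-coding gene lay 11 regions (16.6% of positions did), with a median score of 24. The farthest was 1525 kb from Tenm2, a teneurin adhesion protein gene.

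Neighbouring peaks were common. Another liver peak of any class had its centre within 20 kb of 34.9% of the regions (275, 31.6 to 38.3%) and within 2 kb of 52. The share within 20 kb was 35.4% for liver-only peaks inside genes, 32.2% for those at gene ends and 42.7% for shared intergenic peaks (35.7 to 49.9%). Overlap with a kidney or heart peak was barred by the rule, which limits how near such peaks can lie. A kidney peak lay within 1 kb, without overlap, of 6 regions, within 10 kb of 8.76% and within 50 kb of 30.2%. For heart peaks these values were 0, 3.43% and 19.4%. The heart list held 2519 peaks and the kidney list 4034, against 4813 in liver, and no distance here was adjusted for list length. Liver-only peaks inside genes, under the same bar, had a kidney peak within 10 kb in 12.4% of cases and within 50 kb in 38.0%. Kidney-only intergenic peaks had a liver peak within those distances in 13.9% and 41.0%, and these differences were not tested. The median distance was 122 kb to the nearest kidney peak and 213 kb to the nearest heart peak. Among the 6 regions beside a kidney peak were those next to Med29 (score 111) and Slc22a6, the renal organic anion transporter (score 19).

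Joining liver-only intergenic peaks whose neighbours lay within 20 kb left 639 single regions, 56 pairs and 11 runs of 3 or more, which held 37 regions. The longest run was beyond the 3′ end of Fgd2, toward Pim1, a serine/threonine kinase gene. It held 6 regions over 38.6 kb (chromosome 17, 29384797 to 29423407) with scores, in genome order, of 100, 245, 32, 64, 76 and 47. A seventh liver peak within this stretch, with a score of 122, overlapped both a kidney and a heart peak and these were the only kidney and heart peaks there. It lay 1.34 kb from the region with a score of 245. The run of 4 lay between Arl4d and Dhx8, an RNA helicase of the spliceosome, over 28.9 kb, with scores of 54, 38, 17 and 19. No kidney or heart peak fell inside it.

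Runs of 3 had nearest protein-coding genes of varied function, some of them distant. In the interval between Leprot and Lepr, which encodes the leptin receptor, scores were 29, 17 and 55 over 30.7 kb, and the nearest kidney peak to the region with a score of 55 was 155 kb away. Between Onecut1, a hepatocyte transcription factor, and Fam214a the scores were 65, 38 and 28. Between Wdr5, the nearer gene at 54.2 kb, and Rxra, at 77.2 kb, they were 20, 52 and 118. Next to Ppl, which encodes periplakin, they were 57, 51 and 33 over 6.06 kb. The other runs lay nearest to Ccn1, a matricellular protein gene, Gadd45g, a stress-response gene, Tnks2, a tankyrase, Adam24 and Rplp1, a ribosomal stalk protein gene. The runs nearest to Gadd45g and Rplp1 lay 161.5 and 69.55 kb from the gene, beyond the 50 kb used below to assign genes. Kidney peaks lay inside 2 of the 11 runs, those at Fgd2 (1 peak) and Tnks2 (2 peaks), and a heart peak inside that at Fgd2.

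**Figure D3:**
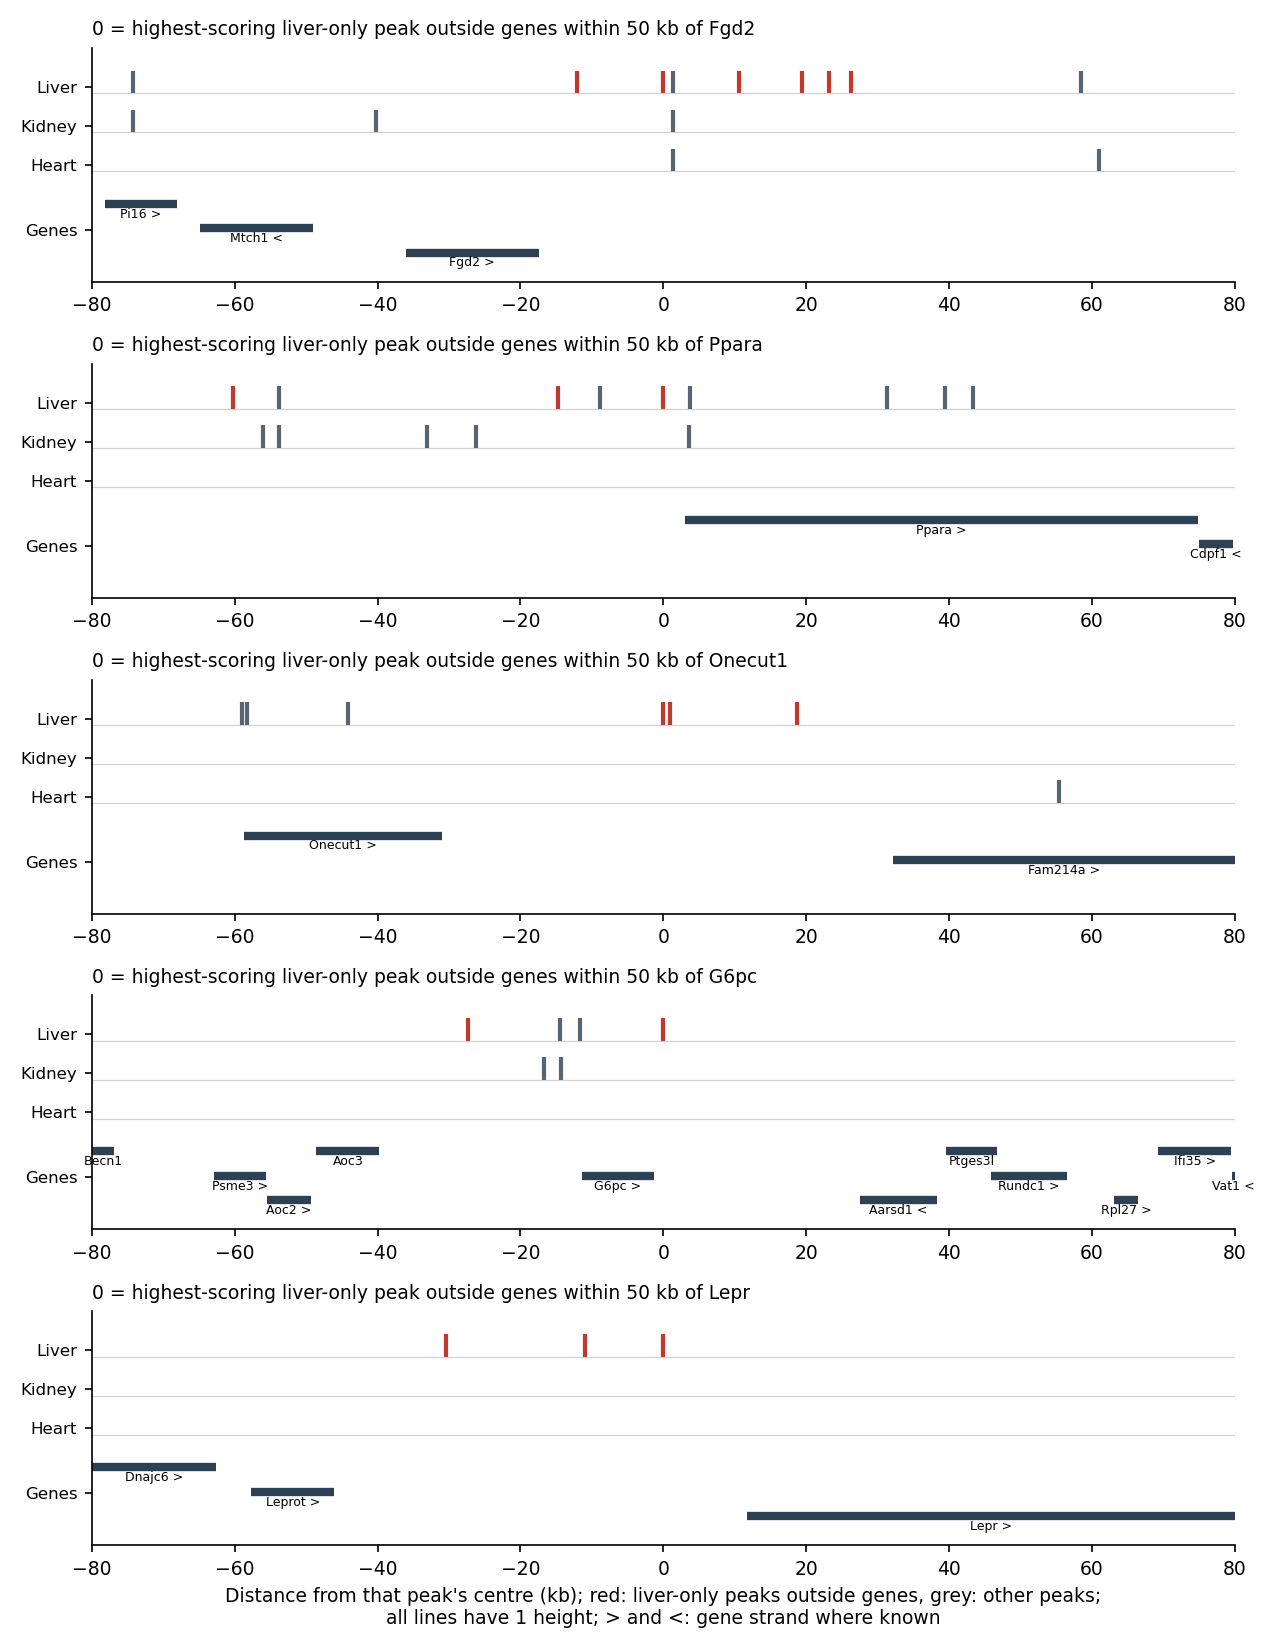
Peaks within 80 kb of the highest-scoring liver-only intergenic peak that lies within 50 kb of each of 5 genes (x axis: distance from that peak's centre in kb). Rows hold liver, kidney and heart peaks and protein-coding genes, with liver-only intergenic peaks in red and all other peaks in grey. The stretch beyond Fgd2 holds 6 red peaks and 1 region shared by all tissues, and the interval before Lepr holds 3 red peaks and no kidney or heart peak.

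Genes next to these regions were then grouped by lists of clock genes, liver functions and markers of other cells. Each region was given the closest protein-coding gene, up to 50 kb away, which linked 584 regions to 515 genes, 2.35% of the 21887 protein-coding genes. Of these genes, 455 had a single region and 55 had 2. Nearness alone does not show which gene a region acts on. Of 387 list genes, 38 (9.82%) were nearest to such a region. The lists name well-studied genes and were chosen with earlier results of these data known, so the higher share is a description.

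Transcription factors and nuclear receptors of liver gave the most regions: 16 regions at 10 of 58 genes (17.2%, 8.59 to 29.4%). Onecut1 had a region 31.0 kb past its 3′ end (score 65, chromosome 9, 74920549 to 74920790). Ppara, the fatty acid sensor that switches on hepatic fatty acid oxidation, had regions 2.97 kb (score 50, chromosome 15, 85731820 to 85732061) and 17.7 kb (score 31) from its 5′ end, and another, beyond the 50 kb limit, at 63.2 kb (score 71). Cebpa, a factor of hepatocyte differentiation, had 3 regions past its 3′ end, at 1.82, 5.17 and 28.3 kb with scores of 44, 34 and 40. Onecut2, related to Onecut1, had a pair of regions 14.0 and 14.6 kb away with scores of 42 and 26.

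Glucose and glycogen genes had 8 regions at 6 of 35 genes (17.1%, 6.56 to 33.7%). Besides G6pc, Ppp1r3c, which targets protein phosphatase to glycogen, had regions at 26.7 kb (score 75, chromosome 19, 36704862 to 36705103) and 18.6 kb (score 41) on its 3′ side. Irs2, an adaptor of the insulin receptor, had a region on each side, 10.4 kb past its 3′ end (score 49) and 47.0 kb upstream (score 33). Pfkfb3, a regulator of glycolysis, had a region at 13.4 kb (score 27). Urea cycle and amino acid genes had 7 regions at 6 of 31 genes (19.4%, 7.45 to 37.5%). Gpt2, a mitochondrial alanine aminotransferase, had a region 3.77 kb upstream (score 56). Cps1, the first enzyme of the urea cycle, had regions at 5.73 kb (score 52) and 20.1 kb (score 26). Agxt, a peroxisomal aminotransferase, and Mat1a, the hepatic S-adenosylmethionine synthetase, had regions with scores of 30 and 28 at 2.33 and 3.57 kb.

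Lipid and cholesterol genes had 6 regions at 5 of 58 genes (8.62%, 2.86 to 18.98%). The highest score was 76, 11.6 kb upstream of Pnpla3, a lipid droplet hydrolase. Fabp1, the hepatic fatty acid binding protein, had regions 2.10 kb (score 39) and 14.4 kb (score 17) upstream. Gpam, an acyltransferase of triglyceride synthesis, and Insig2, a sterol-sensing regulator of SREBP, had upstream regions with scores of 30 and 21. Plasma protein genes had 4 regions at 4 of 57 genes (7.02%, 1.95 to 17.0%). Apoa5, an apolipoprotein of triglyceride clearance, had a region 7.30 kb upstream (score 70, chromosome 9, 46261191 to 46261432), and Alb, the albumin gene, had a region 13.1 kb upstream (score 67, chromosome 5, 90447676 to 90447917). Angptl4, an inhibitor of lipoprotein lipase, and Itih1 had regions within 1.3 kb (1.24 and 1.19 kb) with scores of 31 and 27. Cytochrome P450 and conjugation genes had 3 regions at 3 of 68 genes (4.41%, 0.919 to 12.4%), at Cyp26a1, which degrades retinoic acid (score 31), Ces2a (score 22) and Cyp3a11 (score 17).

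Of 20 clock genes and outputs, 2 (10.0%, 1.24 to 31.7%) were the nearest gene to such a region, Wee1 (score 22, 20.9 kb) and Cry1 (score 18, 8.497 kb upstream). This share was above the 2.35% of all protein-coding genes and above those of the lipid, plasma protein and P450 lists, with an interval that spans all of them. It was not particular to these regions. Of the same 20 genes, 4 were nearest to shared intergenic liver peaks, of which only 154 lay within 50 kb of a gene. For liver-only peaks inside genes the number was 3, and for those at gene ends 0. At Cry1 peaks of all 3 tissues lay about 8.2 kb from the region (8.17 kb in liver and kidney, 8.16 kb in heart). Kidney tubule genes had regions at 2 of 19 (10.5%, 1.30 to 33.1%), Cyp24a1, which inactivates vitamin D (score 54, 22.9 kb), and Slc22a6. Within 50 kb, none of 20 cardiomyocyte genes was the nearest gene. Nor was any of 21 markers of cholangiocytes, Kupffer cells, endothelial cells and stellate cells. By the same count 3 of 10 hepatocyte markers were (Alb, Cps1 and Cyp3a11, the last with a score of 17), as was 1 of 8 kidney tubule markers (Slc22a6). Beyond that limit, the cholangiocyte marker Sox9 was the nearest protein-coding gene to a region at 150.5 kb (score 55). With 20 and 21 genes on the cardiomyocyte and other liver cell lists, the upper ends of the intervals were 16.8 and 16.1%. Both intervals hold the 2.35% of all protein-coding genes, so these counts do not show a share below it.

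**Figure D4:**
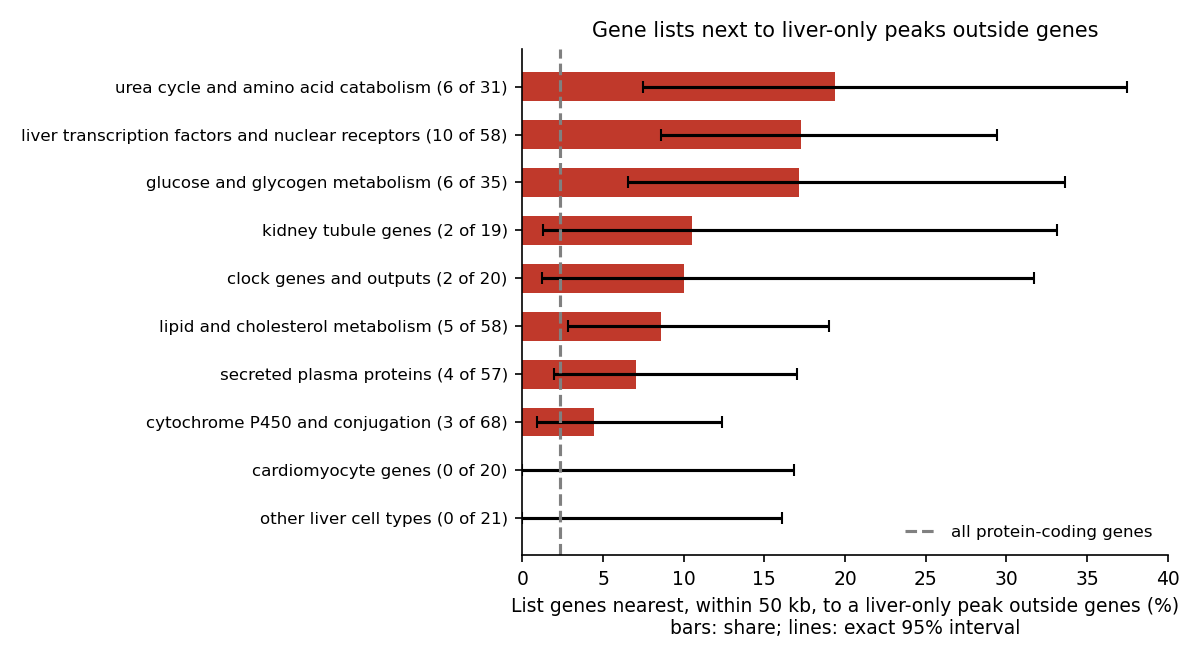
Share (%) of the genes of each list closest, among protein-coding genes and up to 50 kb away, to a liver-only intergenic peak; bars give the share, lines the exact 95% interval, and the dashed line the 2.35% of all protein-coding genes. The urea cycle, transcription factor and glucose lists have the highest shares (19.4, 17.2 and 17.1%), with intervals above the dashed line.

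The 6 liver lists together (307 genes) took up 7.53% of the liver-only intergenic peaks within 50 kb of a gene (44 of 584, 5.53 to 9.98%). The same genes were nearest to 1.52% of all intergenic positions within 50 kb of a gene. The share was 7.14% for intergenic peaks shared between liver and another tissue (11 of 154, 3.62 to 12.4%), 6.11% for liver-only peaks inside genes (99 of 1620) and 8.05% for those at gene ends (54 of 671). It was 2.59% for kidney-only intergenic peaks (7 of 270, 1.05 to 5.27%) and 1.52% for heart-only ones (3 of 197, 0.315 to 4.39%). These 4 classes of liver peaks had shares of 6.11 to 8.05%. The intervals of the kidney-only and heart-only intergenic peaks lay below that of the liver-only intergenic ones, for kidney-only by little (5.27 against 5.53%). The intervals count each peak on its own. The 44 liver-only regions lay at 34 list genes, the 7 kidney-only peaks at 7 and the 3 heart-only peaks at 3, so some liver-only regions shared a gene. The differences in share between classes were not tested.

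BMAL1 peaks at the genes' own start sites were examined next. Start sites and promoter sequences (250 bases before to 50 after a start) came from RefSeq, GRCm38.p6, and were at hand for 393 of the 515 genes nearest to the regions. A liver peak of any class had its centre within 1 kb of a start at 64 of the 393 genes (16.3%, 12.8 to 20.3%), against 1207 of 17492 protein-coding genes (6.9%). The excess was not particular to intergenic peaks: genes nearest to liver-only peaks inside genes had one at 203 of 988 (20.55%, 18.1 to 23.2%). Among genes nearest to shared intergenic peaks 20 of 111 had one (11.4 to 26.5%). The difference did not pass a two-sided exact test by Fisher (odds ratio 0.885, exact p 0.667). At the 64 genes the peak at the start overlapped a kidney or heart peak in 35 cases (54.7%, 41.8 to 67.2%) and was found in all 3 tissues in 15. At 29 genes (45.3%) neither the peak at the start nor the intergenic peak overlapped a kidney or heart peak. The split was similar over all 1564 liver peaks within 1 kb of an end of any gene. Of those, 855 overlapped a kidney or heart peak and 709 did not.

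The E-box CACGTG, which reads the same on both strands, was present in 22 of 47 promoters next to these regions that had a liver peak centre within 250 bp of the start (46.8%, 32.1 to 61.9%). It was present in 33 of 465 such promoters without one (7.10%, 4.94 to 9.82%) and in 7.84% of all 21263 promoters of protein-coding genes. Over all promoters with a liver peak within 250 bp the share was 40.6% (341 of 839), which lies inside the interval for those next to the regions. Of the 38 list genes, 31 had a promoter sequence, 12 had a liver peak within 250 bp of a start, and 8 of these promoters held CACGTG: Ppp1r3c, Apoa5, Onecut1, Irs2, Klf15, Pfkfb3, Ass1 and Abca1. Counted by promoter rather than gene, such a peak was present at 47 of 512 promoters next to the regions. Over all protein-coding genes it was present at 839 of 21263. The lists were chosen with earlier results known, so the 12 of 31 is a description.

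The 5 genes whose promoters are printed above fell into different arrangements. At Ppp1r3c the promoter peak had a score of 148 (rank 156) and overlapped peaks in kidney and heart, its CACGTG began at base -104, and the liver-only intergenic region with a score of 75 lay 31.6 kb from the start. At Klf15, a glucocorticoid-responsive zinc finger factor, the promoter held 3 CACGTG, at bases -228, -172 and -3. Its peak, of score 142 and shared by all 3 tissues, had its centre 122 bp from the start. A region with a score of 37 lay 11.7 kb from its start. The Irs2 promoter, with CACGTG at -44, had a peak of score 98 that overlapped a kidney peak, and the nearer of its regions lay 34.7 kb from the start.

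Apoa5 and Onecut1 differed in that the promoter peak was itself found in liver only. The Apoa5 promoter peak had a score of 28 (rank 3377), below the score of 70 of the intergenic region 7.30 kb upstream, and its CACGTG began at -82. The Onecut1 promoter peak scored 78, with CACGTG at -232, and the intergenic region with a score of 65 lay 58.8 kb from the start. G6pc had the same order as Apoa5, with a liver-only promoter peak of score 27 and an intergenic region of score 98, 11.5 kb from its start. At Ppara the order was the opposite: the promoter peak scored 152 (rank 138) and overlapped a kidney peak, and the nearest intergenic region scored 50. At Ass1, a urea cycle enzyme, the promoter peak scored 112 and the region, 1.36 kb past the 3′ end, scored 22. Whether an intergenic region contacts the promoter beside it was not measured in these data.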

How the data were processed

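BMAL1 ChIP and input libraries of liver, kidney and heart were grouped by tissue from their titles. The score in each list that the authors deposited is a whole number per peak, and its scale is not given in the sources used here. Per the design text, each list rests on every replicate of a tissue, ChIP and input combined. The submitters' processing notes name mm10, Bowtie2, SAMtools and HOMER without roles or versions. Coordinates are counted from 1 and were set against RefSeq genes and promoters of GRCm38.p6 (49943 genes on chromosomes, 21887 protein-coding, 17492 of these with a promoter, which gives their strand). Gene distances run from the peak centre to the nearer gene end.

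Intervals were compared in Python 3.11.15 with pandas 2.3.3 and SciPy 1.17.1, and the interval functions were checked against bedtools on made-up intervals. Genes are named by fixed rules: the 20 regions of highest score (1 is not reported here), at most 4 genes per list, genes with 4 or more regions, and regions at the 1 kb limit; other names, and the promoters shown, were chosen after their values were seen. A comparison of E-boxes inside the peaks was planned, and no genome sequence was used here. Members and lists were chosen with earlier results of these data known. Comparisons of gene sides and of promoters were added after seeing the data. Alternatives were a stricter score, other overlap rules, a 5 kb margin, protein-coding genes only, and other assignment distances.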

Additional observations from a re-analysis of the deposited data

How the results depend on the processing

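The liver-only intergenic peaks were redefined in 5 ways. Counting peaks with centres within 1000 bp as shared, or requiring an overlap of 50% of the shorter peak, left 782 and 789 regions in place of 788 and changed no other value beyond its interval. The upper 50% of the liver list by score left 245 regions, with a median score of 54, 25.7% with another liver peak within 20 kb and 14 list genes. A margin of over 5 kb from gene ends left 518 regions, with a median of 26.6 kb to a protein-coding gene, 30.1% with another liver peak within 20 kb and 21 list genes. The smaller numbers of regions, the higher median score and the longer distance are set by these limits themselves, and the cause of the lower shares with a neighbouring peak was not tested. With protein-coding genes as the only genes the median distance was 21.1 kb over 1085 regions. Assigning genes within 10 kb gave 21 list genes in place of 38, and within 500 kb it gave 49. The share on the 5′ side of the nearest gene ran from 56.6 to 60.1% over the same 5 alternatives, which were added for it after seeing the data. The planned comparison of CACGTG between peak classes was not run, since no genome sequence was used here. No paired analysis was possible because each list pools the replicates of a tissue. For the same reason no replicate could be left out, and depth limits which weak peaks entered each list by an unknown amount.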
